A study of Mus musculus with 6 samples.

Results

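The 10 genes described here mark the endothelial cells that line the liver sinusoids: *Cdh5*, *Pecam1*, *Eng*, *Kdr*, *Flt4*, *Stab1*, *Stab2*, *Lyve1*, *Clec4g* and *Aqp1*. They were chosen by name from a table of 57180 mouse genes, all 10 were found in it, and they served as a measure of the endothelial RNA left in hepatocyte preparations. The preparations were primary hepatocytes of male C57BL/6 mice, which the study used at 8 to 10 weeks of age, obtained by collagenase perfusion of the liver and cultured with dexamethasone and serum. The control group, STINGLoxp (n = 3 libraries), carried floxed alleles of *Sting1*, the gene of the innate immune adaptor STING. The other group, STINGLKO (n = 3 libraries), carried the same floxed alleles and Albumin-Cre, a recombinase driven by a promoter active in hepatocytes and not in endothelial cells. Cells of both groups had been kept for 24 h in the saturated fatty acid palmitate at 0.1 mM, so no library was free of palmitate or of the floxed alleles. Nothing in the sources used here says which libraries came from separate mice or cultures, and the p-values measure the spread between these libraries, which may be technical.

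Sinusoidal endothelial cells form a fenestrated wall without a basement membrane between blood and hepatocytes. They clear waste macromolecules from blood through scavenger receptors, among them the stabilins, and they depend on vascular endothelial growth factor (VEGF) made largely by hepatocytes. A collagenase digest of liver releases them together with hepatocytes, and washing at low speed removes most but not all of them, so their transcripts are a usual trace in hepatocyte RNA.

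Promoter letters are shown for the 4 markers whose calls the results turn on, *Stab2*, which was lower in STINGLKO with all libraries, and *Kdr*, *Flt4* and *Aqp1*, which were lower once 1 library was left out. Each line holds the 250 bases before the start of the gene, read 5′ to 3′ on its own strand from RefSeq (GRCm38.p6). Capitals mark AGGAAG or its reverse complement CTTCCT, a form of the site that ETS factors bind.
Stab2, chr10:87007943-87008192, minus strand: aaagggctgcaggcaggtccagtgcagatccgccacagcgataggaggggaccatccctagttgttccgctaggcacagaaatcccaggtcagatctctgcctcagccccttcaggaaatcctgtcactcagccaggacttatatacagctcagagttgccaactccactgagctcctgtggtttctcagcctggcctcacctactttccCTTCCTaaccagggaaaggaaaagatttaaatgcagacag
Kdr, chr5:75978456-75978705, minus strand: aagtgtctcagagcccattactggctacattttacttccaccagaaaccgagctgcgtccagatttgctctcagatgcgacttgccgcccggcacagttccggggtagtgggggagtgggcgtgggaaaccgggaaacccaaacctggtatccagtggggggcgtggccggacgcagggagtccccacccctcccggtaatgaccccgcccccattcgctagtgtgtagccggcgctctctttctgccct
Flt4, chr11:49609429-49609678, plus strand: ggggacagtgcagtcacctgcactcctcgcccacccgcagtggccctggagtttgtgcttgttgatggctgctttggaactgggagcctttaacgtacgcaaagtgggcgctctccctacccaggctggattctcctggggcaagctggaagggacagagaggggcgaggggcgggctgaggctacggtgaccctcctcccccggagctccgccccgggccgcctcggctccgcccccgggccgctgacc
Aqp1, chr6:55336049-55336298, plus strand: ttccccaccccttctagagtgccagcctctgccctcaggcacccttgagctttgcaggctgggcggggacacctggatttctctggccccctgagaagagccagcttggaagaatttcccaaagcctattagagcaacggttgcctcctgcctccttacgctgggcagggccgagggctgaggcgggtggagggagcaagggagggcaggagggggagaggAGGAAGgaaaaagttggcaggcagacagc

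RefSeq promoters were matched for 7 of the 10 markers. The ETS letters, searched on both strands, stood in 5 of those 7 (*Stab2*, *Aqp1*, *Stab1*, *Eng* and *Clec4g*), and in 29.5% of all 32851 promoters of the same length. The *Kdr* and *Flt4* windows held neither these letters nor AGATAA or TTATCT, a form of the site that GATA factors bind and its reverse complement. Other forms of either site were not searched, so a window without these letters may still hold such a site. The GATA letters were in 0 of the 7 marker promoters and in 9.99% of all promoters, and these letters share no overlap with the ETS letters. A match of letters is a description of the window and not a site of binding.

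Read counts per gene summed to between 14726983 and 18536985 per library. Levels between genes are given as FPKM, the deposited count scaled to gene length and library total, and differences between libraries as CPM, counts scaled to library totals times edgeR's TMM factors, which ran from 0.973 to 1.02. Hepatocyte identity was plain, with a mean of 7106 FPKM for *Alb*, the gene of serum albumin. *Sting1* had 19, 16 and 23 counts in the STINGLoxp libraries and 24, 23 and 15 in those labelled STINGLKO, a log2 fold change of -0.08 (SE 0.298) with an adjusted p of 0.883 in edgeR's quasi-likelihood test. The study reports, by RT-PCR of purified hepatocytes, that the mRNA was expressed and was lost in the knockout, and the counts here do not show such a loss. Which exons are floxed is not given in the sources used here, so this count is no check of the deletion, and the groups are called by their labels throughout.

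STINGLoxp replicate 2 differed from the other 5 libraries in some endothelial genes. *Sele*, which encodes the adhesion molecule E-selectin, had 9, 193 and 4 counts in STINGLoxp replicates 1, 2 and 3 and 6, 9 and 2 in the STINGLKO libraries, so that its CPM in replicate 2 was 37.2 times the mean of the other 5. *Vcam1*, another adhesion molecule of activated endothelium, stood at 51.1 CPM in that library and between 2.57 and 4.74 CPM in the other 5, and *Selp*, the gene of P-selectin, at 19.3 against 2.02 to 3.15 CPM. The receptor gene *Gpr182* went the other way, at 2.45 CPM in replicate 2 and from 5.23 to 6.21 CPM elsewhere. These 4 genes were chosen after their values were seen. Over the 58 tested genes of 3 other endothelial lists, replicate 2 was the highest library for 7 and the lowest for 16, beside 17.0% and 17.6% of all genes tested. Results are therefore given with and without that library.

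All 10 markers were detected in all 6 libraries, at levels that were low beside those of hepatocyte genes. Per length, *Cdh5*, the gene of the junctional protein VE-cadherin, was the most abundant, at a mean of 8.50 FPKM and a range over the 6 libraries from 7.84 to 9.41. That level was above 68.8% of the 14151 genes tested. *Lyve1*, which encodes a hyaluronan receptor of sinusoidal and lymphatic endothelium, came next at 6.21 FPKM (range 5.28 to 7.54). *Eng*, the gene of the BMP and TGF-β co-receptor endoglin, had a mean of 4.53 FPKM, the water channel gene *Aqp1* 4.02 and *Flt4*, the gene of the VEGF-C receptor VEGFR3, 3.45. The scavenger receptor genes *Stab2* and *Stab1* were close together at 2.65 and 2.64 FPKM, and *Pecam1*, which encodes the adhesion molecule CD31, had 2.33. *Kdr*, the gene of the main VEGF-A receptor VEGFR2, was lower at 1.27 FPKM (range 0.634 to 1.78). *Clec4g*, the gene of the sinusoidal lectin LSECtin, was last at 0.205 FPKM (range 0.0712 to 0.479), above 5.42% of tested genes. Neighbours in this order had ranges that overlapped, other than *Cdh5* and *Lyve1*, *Pecam1* and *Kdr*, and *Kdr* and *Clec4g*.

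**Figure D1:**
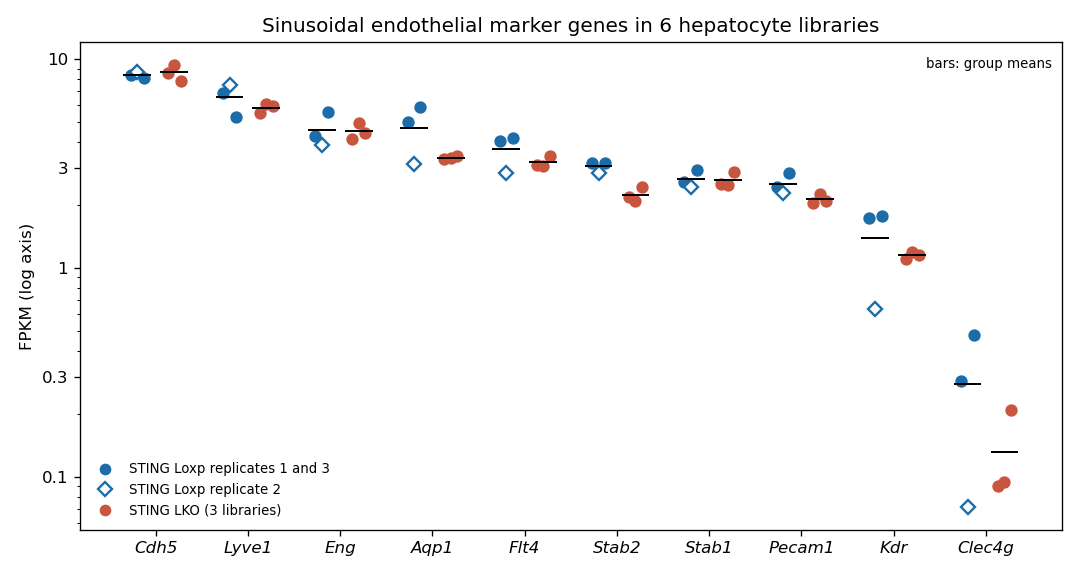
Level of each of the 10 sinusoidal endothelial markers in each of the 6 libraries, in FPKM on a log axis, with bars for the group means and diamonds for STINGLoxp replicate 2. *Stab2* lies between 2.84 and 3.19 FPKM in STINGLoxp and between 2.10 and 2.43 in STINGLKO, and the diamond lies below all other libraries for *Kdr*, at 0.634 FPKM.

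Summed over the 10 genes, the markers held 4020, 3228 and 4118 counts in STINGLoxp replicates 1, 2 and 3 and 3313, 4192 and 3793 in the STINGLKO replicates. These were 0.0253%, 0.0219% and 0.0269% of counted reads in STINGLoxp and 0.0214%, 0.0226% and 0.0226% in STINGLKO. The exact binomial 95% interval of the lowest library was 0.0206% to 0.0221% and that of the highest 0.0260% to 0.0277%, which cover counting error only. STINGLoxp replicates 1 and 3 were the 2 highest, and STINGLoxp replicate 2 lay within the range of STINGLKO. On the CPM scale the sum was 250.2 ± 22.9 in STINGLoxp and 219.5 ± 7.66 in STINGLKO (SD, n = 3 libraries each), a ratio of 0.877, and 0.837 without STINGLoxp replicate 2. In bulk RNA, fewer endothelial cells and less RNA of these genes per cell cannot be told apart. The FPKM of *Alb* alone was 193, 227 and 192 times the summed FPKM of all 10 markers in STINGLoxp replicates 1, 2 and 3. In the STINGLKO replicates it was 202, 188 and 191 times that sum, so the groups overlapped on this scale. *Alb* itself had a log2 fold change of -0.27 (adjusted p 0.00319 in edgeR's quasi-likelihood test).

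Of the 10 markers, 9 passed the filter on low counts, and 1 of these, *Stab2*, was called lower in STINGLKO at an adjusted p under 0.05 in edgeR's quasi-likelihood test, where 11.6% of all genes tested were called lower. None was called higher, against 11.5% of all genes (23.1% were called in either direction). At an unadjusted p under 0.05 there were 3 lower and 0 higher. Counts at that cut, here and for the lists below, have no share over all genes beside them, so no shift is read from them. DESeq2 called 1 marker lower and 0 higher, beside 1538 lower and 1494 higher of all genes. By the authors' criteria, which also ask for an absolute log2 fold change above 1 and a mean above 1 FPKM in a group, 0 markers were called, where 1.49% of all genes were lower, 0.558% higher and 2.05% either. The share of markers called lower was thus near the background. The log2 fold change was below 0 for 8 of the 9, against 50.3% of all genes, with a median of -0.25 beside 0.00 over all genes. Without STINGLoxp replicate 2 all 10 were tested and 4 were called lower, *Stab2*, *Kdr*, *Flt4* and *Aqp1*, where 8.92% of all genes were, and the median was -0.36. That library was set apart after endothelial values in it were seen, and it was the lowest for *Kdr*, *Flt4* and *Aqp1*. Leaving it out therefore raised the control mean of these genes by the choice itself, so their calls and the 8.92% are not like for like. Leaving out any 1 of the other 5 libraries left 1 called lower.

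**Figure D2:**
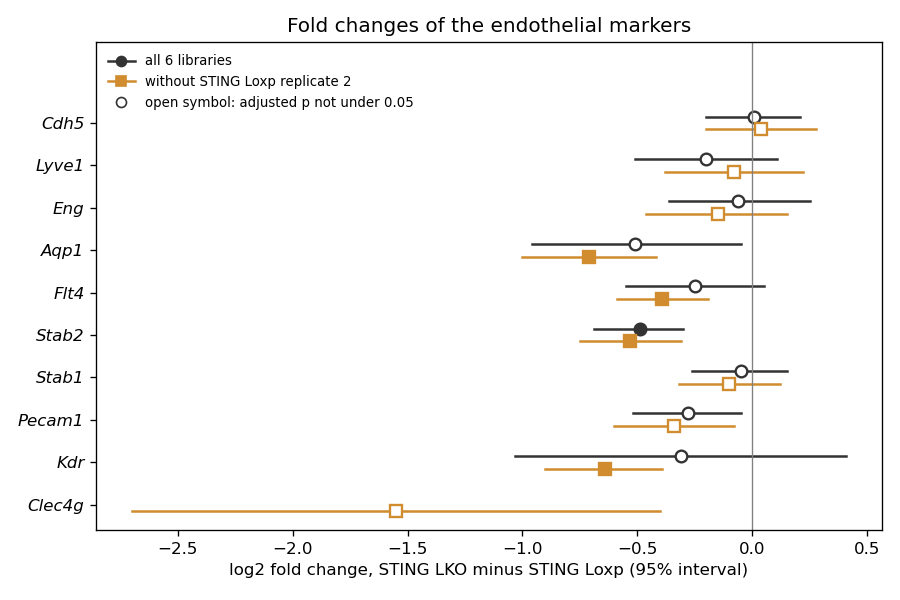
Log2 fold change of each marker, STINGLKO against STINGLoxp, with its 95% interval from edgeR's quasi-likelihood fit, with all 6 libraries and without STINGLoxp replicate 2, filled where the adjusted p was under 0.05. *Clec4g* was tested only without that library. The intervals of *Stab2*, *Pecam1* and *Aqp1* lie below 0 in both fits, and those of *Kdr* and *Flt4* do so only without that library.

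Among the scavenger receptors, *Stab2*, which encodes a receptor that takes up hyaluronan and other waste molecules, stood at 32.5, 29.7 and 32.7 CPM in STINGLoxp replicates 1, 2 and 3 and at 21.9, 21.4 and 24.2 CPM in STINGLKO. Every STINGLKO library lay below every STINGLoxp library. Groups did not overlap in that direction for 20.3% of all genes tested, nor in the other for 20.4%. The means were 31.6 ± 1.65 and 22.5 ± 1.51 CPM (SD, n = 3 each), and *Stab2* fell by 0.49 on the log2 scale (SE 0.0846, 95% interval -0.69 to -0.30), and its adjusted p in edgeR's quasi-likelihood test was 0.00445. The exact permutation test of its 6 values gave p = 0.1, two-sided, the smallest that 3 libraries against 3 allow. Without STINGLoxp replicate 2 it fell by 0.53 (adjusted p 0.00781 in edgeR). It passed in edgeR, DESeq2 and limma under all 15 alternative fits, at log2 fold changes from -0.55 to -0.33. By the authors' criteria, which ask for an absolute log2 fold change above 1, it was not called.

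*Stab1*, its paralog, which is shared with macrophages, did not pass. It stood at 41.7, 40.1 and 47.6 CPM in STINGLoxp and at 39.8, 40.0 and 45.0 in STINGLKO, and the groups overlapped. The fitted log2 change of *Stab1* was -0.05 (95% interval -0.26 to 0.15, adjusted p 0.725 in edgeR's quasi-likelihood test), so a fall as large as the fitted one of *Stab2* lay outside its interval. The difference between the 2 paralogs' changes was not tested. *Lyve1* stood at 23.4, 26.3 and 18.0 CPM in STINGLoxp and at 18.5, 20.7 and 19.7 in STINGLKO. Its highest library was STINGLoxp replicate 2 and its lowest STINGLoxp replicate 3, so the control group spanned the other. The log2 fold change of *Lyve1* was -0.20 (95% interval -0.51 to 0.11, adjusted p 0.331 in edgeR).

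The lectin gene *Clec4g* had 13, 3 and 21 counts in STINGLoxp replicates 1, 2 and 3 and 4, 5 and 10 in the STINGLKO libraries. It was high in STINGLoxp replicates 1 and 3, and replicate 2 was the lowest of all 6. *Clec4g* did not pass the filter, and when every gene with at least 1 count was tested its log2 fold change was -1.11 (SE 0.648, adjusted p 0.383 in edgeR's quasi-likelihood test). Without STINGLoxp replicate 2 it passed the filter, with a log2 fold change of -1.55 (95% interval -2.70 to -0.40, adjusted p 0.0681 in edgeR). At this depth the exact Poisson 95% interval ran from 0.856 to 2.11 CPM in its highest library and from 0.0433 to 0.613 CPM in its lowest.

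Both VEGF receptor genes changed call with STINGLoxp replicate 2. *Kdr* stood at 16.8, 6.29 and 17.3 CPM in STINGLoxp replicates 1, 2 and 3 and at 10.5, 11.4 and 10.8 in STINGLKO. Replicates 1 and 3 lay above all STINGLKO libraries and replicate 2 below all of them, at 0.368 times the mean of replicates 1 and 3, and its exact Poisson 95% interval of 5.06 to 7.74 CPM reached no other library's value. With all libraries the log2 fold change of *Kdr* was -0.31 (SE 0.316, 95% interval -1.03 to 0.41, adjusted p 0.536 in edgeR's quasi-likelihood test). Without replicate 2 it was -0.64 (SE 0.110, adjusted p 0.00668 in edgeR).

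*Flt4* had the same order. It stood at 35.3, 25.5 and 36.4 CPM in STINGLoxp and at 26.5, 26.5 and 29.0 in STINGLKO, with replicate 2 below all STINGLKO libraries and replicates 1 and 3 above them. Its log2 fold change was -0.25 (95% interval -0.55 to 0.05, adjusted p 0.220 in edgeR) with all libraries and -0.39 (adjusted p 0.0203) without replicate 2. *Aqp1*, a membrane pore that cholangiocytes also express, stood at 13.2, 8.53 and 15.5 CPM in STINGLoxp and at 8.60, 8.80 and 8.86 in STINGLKO. Here too replicate 2 was the lowest of the 6, and the STINGLKO libraries lay close together. The log2 fold change of *Aqp1* was -0.51 (95% interval -0.96 to -0.05, adjusted p 0.106 in edgeR) with all libraries and -0.71 (adjusted p 0.00776) without replicate 2.

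The genes of the junctions between endothelial cells, and *Eng*, did not pass the test. *Cdh5* stood at 36.5, 38.8 and 35.5 CPM in STINGLoxp and at 37.0, 40.8 and 33.3 in STINGLKO, with group means of 36.9 ± 1.71 and 37.0 ± 3.78 CPM (SD, n = 3 each). The groups overlapped fully, and both the highest and the lowest library were STINGLKO. Its log2 fold change was 0.01 (SE 0.0897, 95% interval -0.20 to 0.21, adjusted p 0.977 in edgeR's quasi-likelihood test), and a fall of the size fitted for *Stab2* lay outside that interval. *Pecam1* stood at 22.0, 21.2 and 25.7 CPM in STINGLoxp and at 18.2, 20.2 and 18.3 in STINGLKO. Every STINGLKO library lay below every STINGLoxp library, but the gap was narrow, and the log2 fold change of -0.28 (SE 0.103, 95% interval -0.52 to -0.05) had an adjusted p of 0.0832 in edgeR and 0.0774 without STINGLoxp replicate 2. *Eng* stood at 31.5, 29.1 and 41.0 CPM in STINGLoxp and at 30.0, 36.0 and 31.5 in STINGLKO, with a log2 fold change of -0.06 (95% interval -0.36 to 0.25, adjusted p 0.805 in edgeR). Its highest and lowest libraries were both STINGLoxp. *Eng* overlaps *Fpgs* by 61 bp and *Stab1* overlaps *Nt5dc2* by 112 bp in the table's coordinates, and the strand setting of the counting is not given in the sources used here.

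**Figure D3:**
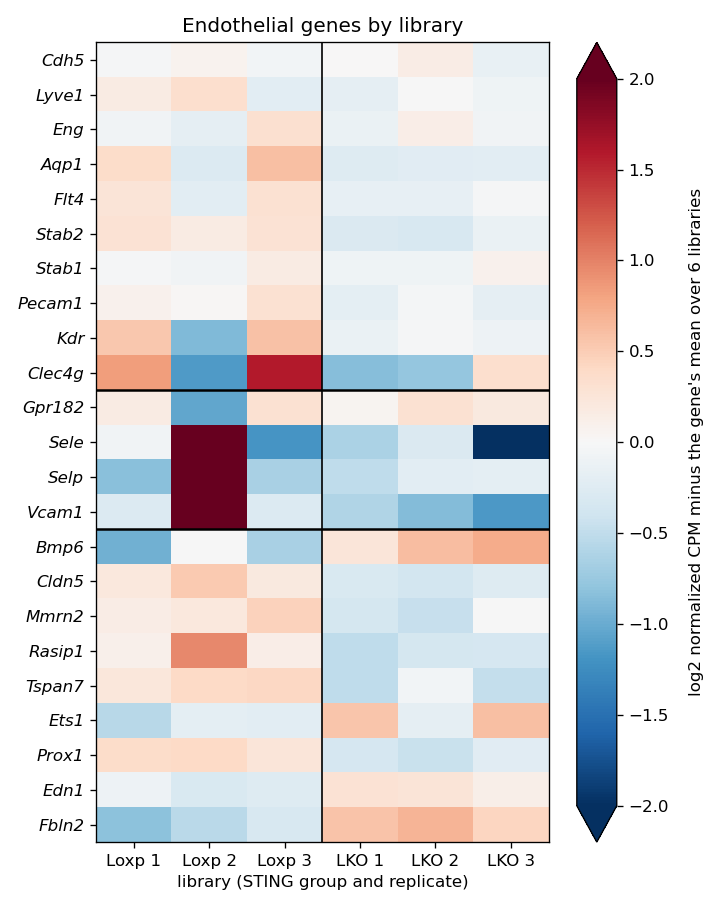
Log2 normalized CPM of 23 endothelial genes in each library, centred on the gene's own mean over the 6 libraries, as colour, with the 10 markers at the top, *Gpr182* and the adhesion genes next, and called genes of the other endothelial lists at the bottom. STINGLoxp replicate 2 is the lowest of the 6 libraries for 5 of the 10 markers and STINGLoxp replicate 3 the highest for 8, and *Sele*, *Selp* and *Vcam1* are highest in STINGLoxp replicate 2.

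The spread among STINGLoxp libraries was wider than among STINGLKO libraries for 7 of the 9 tested markers, as it was for 59.3% of all genes tested. It was narrower for *Cdh5* (4.62% against 10.2%) and for *Stab2* (5.22% against 6.73%), as coefficients of variation. The median coefficient of variation of the 9 tested markers was 18.5% in STINGLoxp and 6.04% in STINGLKO, beside 9.51% and 7.81% over all genes tested. The coefficient reached 46.2% in STINGLoxp for *Kdr*, against 4.28% in STINGLKO, and 28.7% against 1.54% for *Aqp1*. STINGLoxp replicate 2 was the lowest of the 6 libraries for 5 of the 10 markers (*Eng*, *Kdr*, *Flt4*, *Clec4g* and *Aqp1*). Among the 9 tested markers it was the lowest for 4, a larger share than the 17.6% of all genes tested. *Cdh5* and *Lyve1* in it were 1.08 and 1.27 times the mean of replicates 1 and 3. Its low values were therefore not shared by all markers. Of 10850 genes compared over the 6 libraries, those nearest in pattern to the summed markers were *Cgrrf1*, *Atg3* and *Fitm2*, at root mean square distances of 0.0297, 0.0357 and 0.0382 on the log2 scale. Among so many genes and so few libraries some must lie close, and a link of these genes to endothelial RNA was not tested.

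Beyond the 10 markers, 71 endothelial genes in 3 lists were followed, of which 58 were tested. In edgeR's quasi-likelihood test 5 were lower (8.62%), 4 were higher (6.90%) and 49 did not pass. Both shares were below those of all genes tested, 11.6% lower and 11.5% higher. Of the 20 other sinusoidal genes, 17 were tested, 0 were lower (4 at an unadjusted p under 0.05, and 1 in DESeq2) and 1 was higher. That gene was *Bmp6*, the sinusoidal BMP ligand that sets hepcidin, at 5.11 ± 1.81 CPM in STINGLoxp and 10.5 ± 1.81 in STINGLKO, a log2 fold change of 1.04 (adjusted p 0.0177 in edgeR). Its call was lost without STINGLoxp replicate 3 or STINGLKO replicates 2 or 3. The most abundant of this list were *Ctsl*, a lysosomal protease that hepatocytes also make, at 132 FPKM, *Oit3* at 3.55 and *Gata4*, the factor that specifies sinusoidal endothelium, at 3.09.

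Of 33 pan-endothelial genes 30 were tested, with 4 lower and 1 higher and a median log2 fold change of -0.19, and without STINGLoxp replicate 2 there were 2 lower and 0 higher. The background over all genes was again 11.6% lower and 11.5% higher with all libraries, and 8.92% and 8.62% without STINGLoxp replicate 2. On the log2 scale *Tspan7*, a tetraspanin, fell by 0.68 (adjusted p 0.00791 in edgeR), *Rasip1*, needed for vessel lumens, fell by 0.84 (adjusted p 0.0312), *Cldn5*, a tight junction protein, fell by 0.62 (adjusted p 0.0202), and *Mmrn2*, a matrix protein that binds VEGF-A, fell by 0.54 (adjusted p 0.0423). Without STINGLoxp replicate 2, *Tspan7* and *Rasip1* still passed, at log2 fold changes of -0.65 and -0.51, and *Cldn5* and *Mmrn2* did not, with adjusted p of 0.0573 and 0.0636 in edgeR. Over all 15 alternatives the calls of *Cldn5*, *Rasip1* and *Mmrn2* were lost under 4, 5 and 8, and that of *Rasip1* was lost without any 1 of the STINGLKO libraries. The transcription factor gene *Ets1* was higher by 0.68 (adjusted p 0.0392 in edgeR), and its call was lost under 10 of 15 alternatives. *S1pr1*, *Ets1* and *Nrp1* were the most abundant of the list, at 7.09, 6.92 and 4.45 FPKM.

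Of 18 genes of large vessels and lymphatics 11 were tested, with 1 lower and 2 higher. *Prox1*, which marks lymphatic endothelium and is also a hepatocyte factor, had a log2 fold change of -0.67 (adjusted p 0.00139 in edgeR). *Fbln2*, a matrix glycoprotein, rose by 1.11 (adjusted p 7.24e-04 in edgeR) and *Edn1*, the gene of endothelin, by 0.44 (adjusted p 0.0474 in edgeR), a call lost under 8 of 15 alternatives, among them leaving out STINGLoxp replicate 2. The most abundant were *Plvap*, a protein of fenestral diaphragms, at 3.43 FPKM, *Edn1* at 3.08 and *Fbln2* at 2.88. The groups did not overlap for *Plvap*, whose log2 fold change of -0.73 had an adjusted p of 0.0529 in edgeR. It passed without STINGLoxp replicate 2 (-0.88, adjusted p 0.0321 in edgeR) and in DESeq2 (adjusted p 0.0216). *Pdpn*, *Ccl21a* and *Aplnr* of this list, *Mmrn1* of the pan-endothelial list and *Cd209a* of the sinusoidal list had no count in any library, and *Vwf* had 1 count in all 6 together. Other genes of this list were detected, among them *Reln* with 468 counts in all 6 libraries together and *Ackr1* with 35. Both were chosen after their values were seen. *Reln* was also in the stellate cell list below, so its counts cannot be assigned to either cell type.

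The ligands and signalling partners of these receptors were followed in a list of 29 genes, 25 of them tested, with 4 lower, 1 higher and a median log2 fold change of 0.01, where 11.6% of all genes were lower and 11.5% higher. *Vegfa*, the ligand of the *Kdr* product, stood at 73.1 ± 5.79 CPM in STINGLoxp and 71.8 ± 1.01 in STINGLKO (SD, n = 3 each), a log2 fold change of -0.03 (SE 0.0734, adjusted p 0.841 in edgeR's quasi-likelihood test). *Pgf*, a further VEGF family ligand, had a log2 fold change of -0.39 (adjusted p 0.0237 in edgeR), and not without STINGLoxp replicate 2 (adjusted p 0.0674). On the same scale *Id3*, a target of BMP signalling, fell by 0.83 (adjusted p 0.00376), *Jup*, the junction protein plakoglobin that binds cadherins, by 0.67 (adjusted p 5.95e-04) and *Epas1*, a hypoxia factor, by 0.25 (adjusted p 0.0248). The co-receptor gene *Nrp2* rose by 0.37 (adjusted p 0.0397 in edgeR). The calls of *Pgf*, *Epas1* and *Nrp2* were lost under 4, 7 and 6 of 15 alternatives. The most abundant of the list were *Id3*, *Ctnnb1* and *Id1*, at 38.7, 28.7 and 24.4 FPKM, all expressed far beyond endothelium. *Angpt1* and *Has2* had no count in any library.

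Lists of other cell types were read against the same background, 11.6% of all genes lower and 11.5% higher in STINGLKO. Of 20 hepatocyte genes 16 were lower and 0 higher, and their summed level was 15716 to 17099 FPKM in STINGLoxp and 12017 to 12161 in STINGLKO. Of 18 tested macrophage genes 3 were lower and 0 higher, with a summed level of 74.5 to 93.1 FPKM in STINGLoxp and 62.0 to 70.7 in STINGLKO, and *Cd68*, *Lyz2* and *Mpeg1* led them at 29.3, 7.92 and 5.48 FPKM. STINGLoxp replicate 2 was the lowest library for 9 of those 18 and for 8 of 13 tested stellate cell genes, beside 17.6% of all genes. The stellate cell list had 0 called in either direction in edgeR (2 higher at an unadjusted p under 0.05) and 0 in DESeq2, with *Ecm1*, *Sparc* and *Dcn* at 8.10, 5.42 and 3.21 FPKM. Of 5 tested cholangiocyte genes 3 were lower and 1 higher, with *Cldn4*, *Sox9* and *Slc4a2* at 83.4, 10.4 and 9.19 FPKM. No lymphocyte or neutrophil gene passed the filter to be tested. The 15 lymphocyte genes held 7 counts in all and the 11 neutrophil genes 65, with a summed level of 0.186 to 0.915 FPKM in STINGLoxp and 0.0293 to 0.0701 in STINGLKO. The part of these other cells in the levels of *Stab2*, *Kdr*, *Flt4* and *Aqp1* was not tested.

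**Figure D4:**
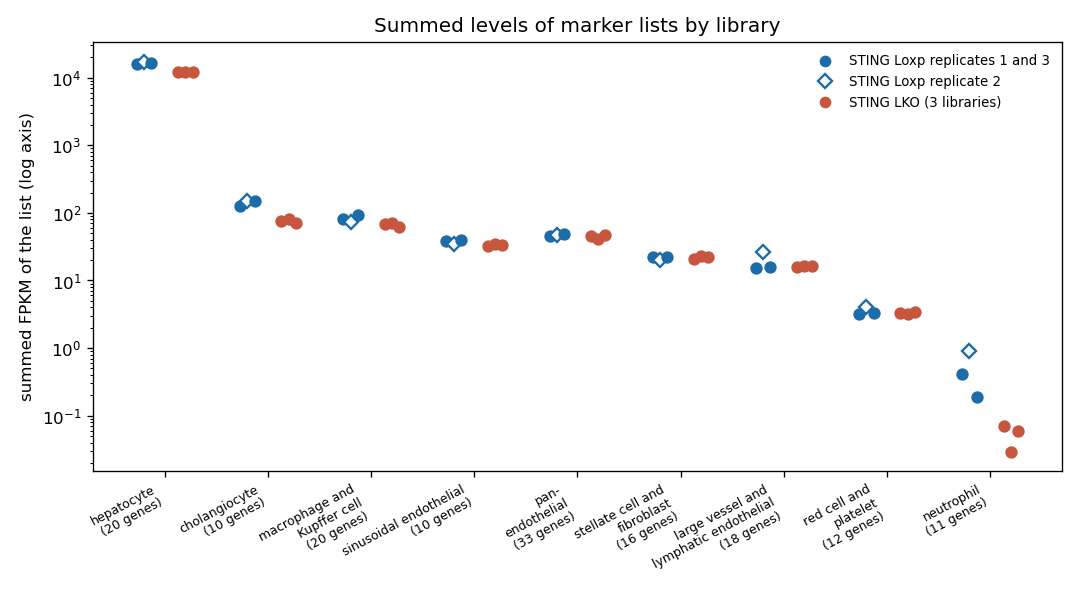
Summed FPKM of 9 marker lists in each of the 6 libraries, on a log axis, with diamonds for STINGLoxp replicate 2. The 10 sinusoidal markers sum to between 32.6 and 40.2 FPKM, the 20 hepatocyte genes to between 12017 and 17099, and the 11 neutrophil genes to less than 1 FPKM in every library.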

How the data were processed

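RNA of 6 hepatocyte libraries, 3 per group by the genotype in the labels, was analysed from 1 table. Reads were trimmed, aligned and counted by the authors, whose processing notes name fastp, HISAT2, StringTie and edgeR and the build GRCm39, without versions. The deposited read counts are whole numbers without normalization. The deposited FPKM values scale the counts to gene length and counted reads. No column was left out. Depth was 14726983 to 18536985 counted reads per library.

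Counts were compared in R 4.3.3 with edgeR 4.0.16 (filterByExpr with a minimum count of 10, TMM, two-sided quasi-likelihood test, Benjamini-Hochberg over all 14151 genes tested, called at an adjusted p under 0.05). Single genes also had an exact permutation test. DESeq2 1.42.0, upper-quartile scaling, the exact and the likelihood ratio test of edgeR, other filters, a replicate block, limma 3.58.1 on log2(FPKM + 1) and log2(FPKM + 0.1), the authors' criteria (absolute log2 fold change above 1, mean FPKM above 1 in a group) and each library left out were the alternatives. The fit was tested on simulated data. Named are the 10 markers, *Sting1*, genes overlapping a marker, defining markers at 0 and the 3 nearest patterns. The 3 most abundant of each list and up to 6 called genes of the endothelial and signalling lists are named too. Of the hepatocyte list only *Alb* is named, and of the lymphocyte and neutrophil lists no gene. *Vegfa* and the genes said to be chosen after their values were seen fall outside this rule. The markers and lists were chosen with earlier results of these data known. Sequences came from RefSeq (GRCm38.p6), and no coordinate was converted between builds. Figures were drawn with matplotlib 3.10.9.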

Additional observations from a re-analysis of the deposited data

How the results depend on the processing

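*Stab2* kept its direction and its side of the threshold under all 15 alternative fits (adjusted p 2.38e-04 to 0.0242), and was not called by the authors' criteria. The number of markers called lower ranged from 1 to 4 when each library was left out, and was 4 without STINGLoxp replicate 2 and 0 by the authors' criteria; none was called higher under any alternative. Over all genes, leaving out a library gave 1052 to 1515 lower and 922 to 1510 higher, and the authors' criteria 211 and 79 (1.49% and 0.558%). The markers' median moved between -0.36 and -0.13. Over single named genes, 626 of the alternative values kept their direction and side, 63 lost the call, 13 gained one and 17 changed sign.

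Sign changed only in log2 fold changes that did not pass. With a library left out, *Cdh5* ran from -0.07 to 0.08 (-0.01 without STINGLoxp replicate 1, -0.02 without STINGLoxp replicate 3), *Eng* from -0.15 to 0.10 (0.00 without STINGLKO replicate 1), *Stab1* from -0.11 to 0.03, *Ctnnb1* from -0.08 to 0.18 (-0.03 without STINGLoxp replicate 3), *Id1* from -0.12 to 0.00, *Gpr182* from -0.04 to 0.49, *Selp* from -1.87 to 0.45 and *Sparc* from -0.17 to 0.05 (0.00 and 0.01 without STINGLoxp replicate 1 and STINGLKO replicate 1). *Cdh5* gave 0.00 with upper-quartile factors, and *Sparc* 0.00 and 0.01 in limma with pseudocounts of 1 and 0.1. *Gpr182* and *Selp* turned without STINGLoxp replicate 2. The cause was not tested.

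Same-numbered libraries of the groups deviated together at correlations of 0.12, 0.08 and 0.01, and differently numbered ones at -0.13 to 0.05. These values cannot tell whether libraries were prepared in pairs, and the main fit assumed no pairing. With the replicate number as a block, 1 marker was lower and 0 higher, and 1605 genes were lower and 1630 higher. With 3 libraries per group, depth limits *Clec4g*, at 3 to 21 counts per library.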

Other observations

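The 4 globin genes of the red cell list, *Hba-a1*, *Hba-a2*, *Hbb-bs* and *Hbb-bt*, summed to 17, 20 and 16 counts in STINGLoxp replicates 1, 2 and 3 and to 0, 0 and 3 counts in the STINGLKO replicates. They were picked from that list after their values were seen and did not pass the filter on low counts. Of the 12 genes of the list 2 were tested, *Alas2*, an enzyme of haem synthesis that did not pass, and *Itga2b*, a platelet integrin gene that was higher in STINGLKO in edgeR's quasi-likelihood test, a call lost under 8 of 15 alternatives. *Pf4*, a platelet chemokine gene, had 4 to 10 counts per library.

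In the macrophage and Kupffer cell list, where 3 genes were lower and 0 higher, *Cd68* was lower in STINGLKO, with a log2 fold change of -0.87 (SE 0.0896, adjusted p 4.21e-04 in edgeR's quasi-likelihood test). *Cd5l*, chosen after its values were seen, stood at 6.18, 2.31 and 7.97 CPM in STINGLoxp and at 10.8, 11.6 and 9.33 in STINGLKO, with a log2 fold change of 0.94 that did not pass (adjusted p 0.0853 in edgeR) and of 0.58 (adjusted p 0.0490) without STINGLoxp replicate 2. *Clec4f*, *Vsig4* and *C1qa*, also chosen after their values were seen, were lowest in STINGLoxp replicate 2, at 2.10, 0.350 and 2.24 CPM.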
